A study of Mus musculus with 20 samples.

Results

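Transcripts of the microtubule motors were read across 20 RNA-seq libraries of cultured mouse motoneurons. The genes are the protein-coding rows whose symbol begins with Kif or Klc and a number, or with Dync, Dynl or Dctn. This gives 63 of the 39174 genes in the files, of which 22736 are protein-coding, and leaves aside 3 pseudogenes with such a name. They were divided into 21 genes called anterograde kinesins here (cargo-carrying heavy chains, the 4 kinesin light chains, and with them Kif21a, Kif21b, Kif26a and Kif26b, whose known roles include microtubule growth or signalling), 11 mitotic kinesins, 9 other kinesins, 5 subunits of dynein 1, 2 of dynein 2, 9 dynein light chains and 6 dynactin subunits. Primary motoneurons came from spinal cords of CD-1 mouse embryos and grew in microfluidic chambers, in which axons enter a compartment apart from cell bodies and dendrites. RNA of each compartment was amplified by PCR before sequencing. Control cultures were transduced with an empty lentiviral vector (GFP in the sample titles) and Tdp-43 knockdown cultures with a lentivirus expressing 1 shRNA against Tdp-43, so that both carry a virus. There were 4 control and 6 knockdown libraries of the somatodendritic compartment, and 4 control and 6 knockdown libraries of the axonal compartment. The study states that its control libraries were published earlier and were processed in parallel, and the labels name no culture, so that p-values measure the spread between these libraries, which may in part be technical.

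Kinesins and cytoplasmic dynein are motors that step along microtubules. Most kinesins move toward the plus end, which in axons points to the terminal, and carry vesicle precursors, mitochondria and RNA granules outward, whereas dynein 1, together with its activator dynactin, returns cargo to the cell body. Mitotic kinesins build the spindle of dividing cells, and dynein 2 works inside cilia. Motoneurons have very long axons, and variants in KIF5A and DCTN1 are known in human motoneuron disease.

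The values are FPKM (fragments scaled to transcript length and to the mapped total of the library). Depth was therefore estimated from the 95% interval deposited beside every value. Its width was read as a number of implied fragments, which need not equal the reads of the gene. Set against the deepest library (1.0), estimates over 680 genes reached down to 0.612 among somatodendritic controls and 0.143 among somatodendritic knockdown libraries. Axonal controls spanned 0.53 to 0.674 and axonal knockdown libraries 0.103 to 0.76. Between 39 and 58 of the 63 genes were above 0 FPKM per library. The knockdown was visible in the somatodendritic compartment, in which Tardbp, the gene of Tdp-43, stood at 19.0 to 30.8 FPKM in control and 0 to 8.54 FPKM in knockdown libraries. In axonal libraries Tardbp stood at 13.4 to 32.3 FPKM in control and 1.21 to 33.2 FPKM in knockdown, and the library labelled axonal knockdown replicate 1 held the highest of these values, so that its label is not borne out by Tardbp. The libraries labelled motoneuron held few motoneuron transcripts: of 7 markers 6 are in the files, Mnx1, Isl2 and Chat were listed at 0 in all 20 libraries, and the 6 summed to at most 8.9 FPKM in any library. Markers of interneurons (summed FPKM 1.88 to 164), astroglia (12.2 to 401) and the oligodendrocyte lineage (7.27 to 121) were present. A further feature divided the axonal libraries. The 37 mitochondrially encoded genes took 8.88 to 13.1% of all FPKM in 5 of them (control replicates 1 to 3, knockdown replicates 1 and 3) and 33.0 to 47.7% in the other 5 (control replicate 4, knockdown replicates 2, 4, 5 and 6), against 10.5 to 15% in the 10 somatodendritic libraries. For the calls between compartments and for several other values that rest on axonal libraries, the value in each of these sets is therefore also given.

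Across all libraries the most abundant motor transcripts were the same few genes. In somatodendritic control libraries the order of mean FPKM began with Dynlrb1, Kif1b, Dynll1, Dync1h1, Kif5c, Klc1 and Kif1a, and in axonal control libraries Kif1b and Kif1a led it. Their lead rests on axonal control replicate 4, with 384 and 370 FPKM. In axonal control replicates 1 to 3 Kif1b held 149, 109 and 164 FPKM and Kif1a 141, 87.1 and 131 FPKM. Dync1h1 held 194, 137 and 126 FPKM in these 3. Dynlrb1, a roadblock-type light chain of dynein, stood at 375 ± 40.6 FPKM (SD, n = 4) in somatodendritic control. Kif1b, a carrier of synaptic vesicle precursors and mitochondria, stood at 317 ± 11.3 FPKM there (SD, n = 4). Dync1h1, the heavy chain of dynein, followed at 194 ± 21.9 FPKM (SD, n = 4), about level with Kif5c at 163 ± 34.8 FPKM (SD, n = 4). The 21 anterograde kinesins made up 43 to 45.3% of the FPKM of all 63 genes in somatodendritic control and 39.3 to 58.4% in axonal control. Dynein light chains made up 27.7 to 32.6% and 20.5 to 28.8%, dynein 1 subunits 10.5 to 12.3% and 6.94 to 17.4%, and dynactin subunits 10.8 to 11.8% and 9.65 to 14.6%. The ranges of these 4 classes overlap between both compartments. The 11 mitotic kinesins held 0.285 to 1.27% in somatodendritic control and 1.25 to 5.01% in axonal control. The values of the 4 genes Dynlt1a, Dynlt1b, Dynlt1c and Dynlt1f are uncertain, since their sequences are nearly identical and reads can be divided between them, and the same holds for Kif4 and Kif22, each of which has a pseudogene copy in the files.

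**Figure D1:**
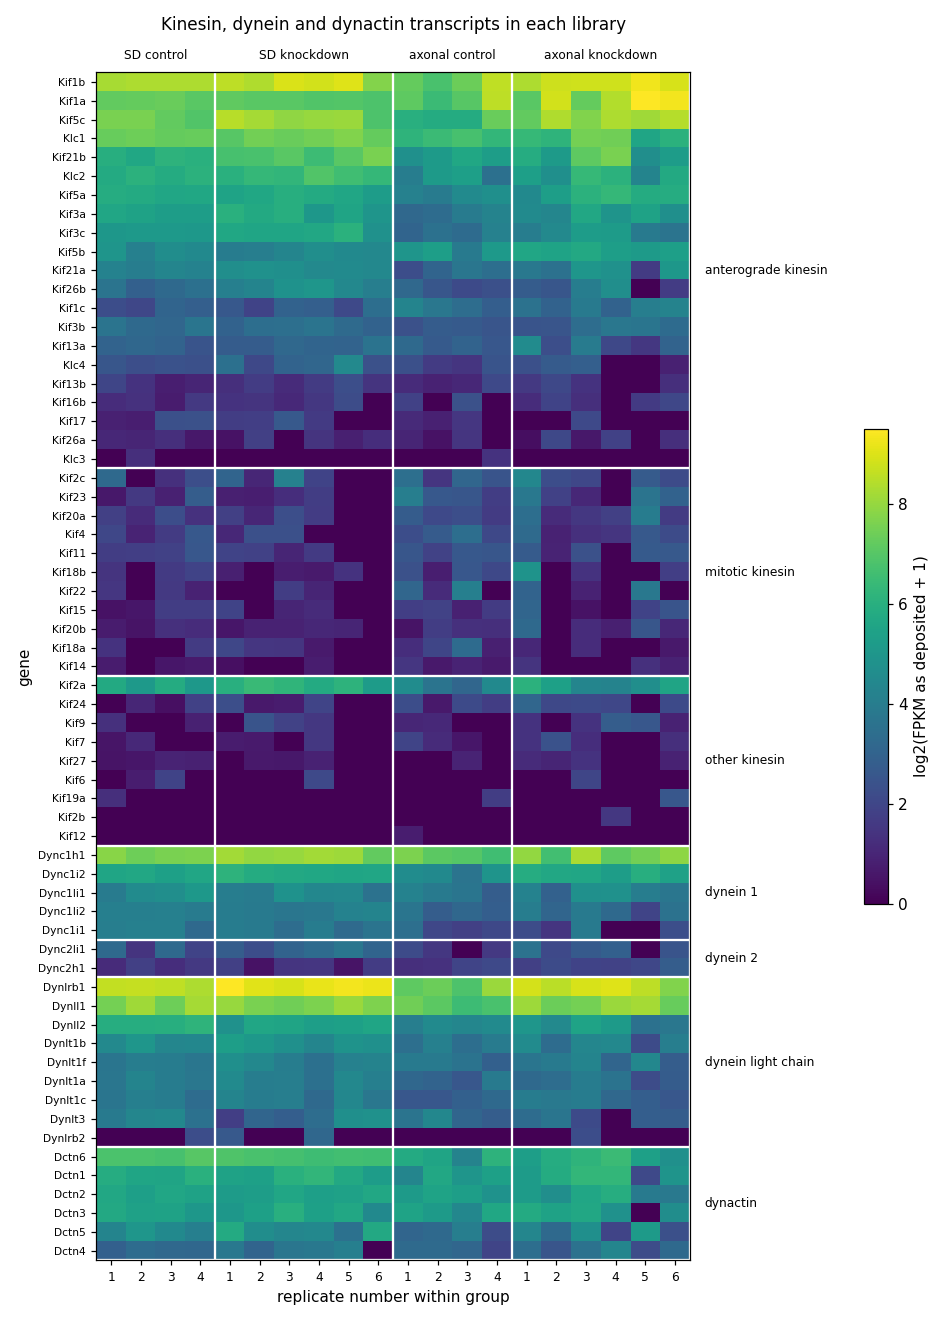
Level of each of the 63 motor genes (rows, grouped by class) in each of the 20 libraries (columns, grouped by compartment and condition, SD for somatodendritic), as log2(FPKM as deposited + 1). Kif1b, Kif1a, Kif5c, Dync1h1, Dynlrb1 and Dynll1 are bright in every library, while the mitotic and most other kinesins are near 0, and columns of low depth such as somatodendritic knockdown 6 show many genes at 0.

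The comparison of axonal with somatodendritic libraries asks which motor transcripts are relatively richer in axons. Libraries were scaled to each other by the median of ratios and compared with limma on log2(scaled FPKM + 1), so that changes of genes near 1 FPKM are understated. In control libraries no member passed an adjusted p of 0.05, against 2.1% of the 14062 genes tested, and at an unadjusted p under 0.05 limma placed 4 members higher and 8 lower of 55 tested, against 8.09% and 7.31% of all genes. The smallest unadjusted p belonged to a subunit of kinesin-2, a heterotrimer that carries vesicles and ciliary cargo. Kif3a stood at 48.3, 43.1, 37.8 and 38.3 FPKM in the 4 somatodendritic and at 8.35, 9.15, 14.6 and 18.2 FPKM in the 4 axonal control libraries. Every axonal control library lay under every somatodendritic one, both as deposited and after scaling, which holds for 7.65% of all genes tested. The log2 difference was -1.16 (SE 0.34, limma adjusted p = 0.0764). Its partner Kif3c stood at 31.2 to 33.4 FPKM in somatodendritic and 7.32 to 17.2 FPKM in axonal control (log2 difference -0.99, SE 0.35, adjusted p = 0.151 in limma), and Kif3b, the other partner, at 7.88 to 12 and 4.09 to 5.82 FPKM (-0.35, SE 0.39, adjusted p = 0.748 in limma).

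Dynll2, a dynein light chain that is also a hub for many other proteins, behaved like Kif3a. It stood at 59.4, 58.6, 61.1 and 70.3 FPKM in somatodendritic and at 15.8, 22.4, 19.5 and 22.2 FPKM in axonal control libraries. The groups do not overlap on either scale, and the log2 difference was -1.04 (SE 0.33, limma adjusted p = 0.112). Kif5a, the neuronal heavy chain of kinesin-1, also had groups that do not overlap, with 48.6 to 57.7 FPKM in somatodendritic and 14.4 to 25.3 FPKM in axonal control (log2 difference -0.83, SE 0.35, adjusted p = 0.242 in limma). Dctn6, a subunit at the pointed end of dynactin, had 105 to 130 against 17.7 to 69.8 FPKM (log2 difference -0.82, limma unadjusted p = 0.0278). Dynlrb1 was lower as deposited in all 4 axonal control libraries (138, 162, 114 and 267 FPKM, against 394, 408, 381 and 316 FPKM), with a log2 difference of -0.61 (SE 0.25, adjusted p = 0.228 in limma).

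Members with positive differences in control included Kif1c and Kif5b. Kif1c, a widely expressed kinesin-3, stood at 3.68, 3.07, 7.39 and 6.27 FPKM in somatodendritic and at 18.6, 12.5, 9.5 and 6.07 FPKM in axonal control libraries. The groups overlap as deposited and do not after scaling (a wholly higher group was found for 8.08% of all genes), and the log2 difference was 1.56 (SE 0.47, limma adjusted p = 0.0888). Kif5b, the heavy chain of kinesin-1 that most cell types use, had 30.1, 16.3, 24.1 and 21.7 FPKM in somatodendritic and 30.2, 38.8, 13.7 and 34.6 FPKM in axonal control, and the groups overlap (0.84, SE 0.31, adjusted p = 0.175 in limma). Within a library, where no scaling enters, the ratio of Kif5a to Kif5b was 1.91 to 3.36 in somatodendritic control and 0.371 to 1.64 in axonal control, and that of Kif5c to Kif5b was 5.54 to 11.6 and 1.44 to 4.66, so that neither ratio overlaps between compartments in control. The ratio of Kif1a to Kif1b, paralogues of the kinesin-3 family, went the other way, from 0.411 to 0.493 in somatodendritic control to 0.797 to 0.965 in axonal control. Of 12 such ratios examined (11 between related genes, and Dynlrb1 to Dync1h1), 4 did not overlap in control, and 2 of the 4 share Kif5b. The remaining one was Kif21b to Kif21a (3.26 to 3.66 and 3.82 to 7.03). Of single genes 8.08% lay wholly higher and 7.65% wholly lower in control. Those are scaled levels, and no share was computed for ratios of other gene pairs. In knockdown libraries, where with 6 against 6 only 1.12% of single genes lay wholly higher and 1.34% wholly lower, all 12 overlap between compartments, among them Kif1a to Kif1b (0.237 to 0.53 and 0.339 to 1.31), Kif5a to Kif5b (1.78 to 3.20 and 0.447 to 2.06) and Kif5c to Kif5b (5.58 to 23.5 and 3.02 to 8.67).

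How many members passed depended on the scaling and on the libraries used. With FPKM as deposited, the median of all genes lay at -0.47 in this comparison, and 7 members passed, all lower, as 3.41% of all genes did (0.704% passed as higher). With array weights, which count noisy libraries less, 1 passed as higher and 5 as lower (4.9% and 4.01% of all genes). When the 5 axonal libraries of high mitochondrial share, control replicate 4 among them, were left out of the fit, 5.02% of 14055 genes passed as higher and 4.19% as lower. Then 1 member passed as higher (Kif1c, log2 difference 1.84, limma adjusted p = 0.0151) and 5 as lower, among them Dynlrb1 (-0.82, adjusted p = 0.00719), Dynll2 (-1.06, adjusted p = 0.0146), Kif3a (-1.33, adjusted p = 0.0181) and Kif3c (-1.19, adjusted p = 0.0184). With the high-share axonal libraries alone, which hold control replicate 4 as a lone axonal control, the log2 difference of Kif1a was 1.84. Kif1c gave 0.72, Dynlrb1 0.02, Dynll2 -0.96, Kif3a -0.67 and Kif3c -0.40 there. Without axonal control replicate 4 alone, 1 member passed as higher and 1 as lower, and without axonal knockdown replicate 5 alone 2 passed as lower. Over the fits that left out a single library, 96 to 509 of all genes passed in either direction, the 509 without axonal knockdown replicate 5. In axonal control replicate 4, Kif1a stood at 370 FPKM and Kif5c at 161 FPKM, against 87.1 to 141 and 55.8 to 61.7 FPKM in the other 3.

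**Figure D2:**
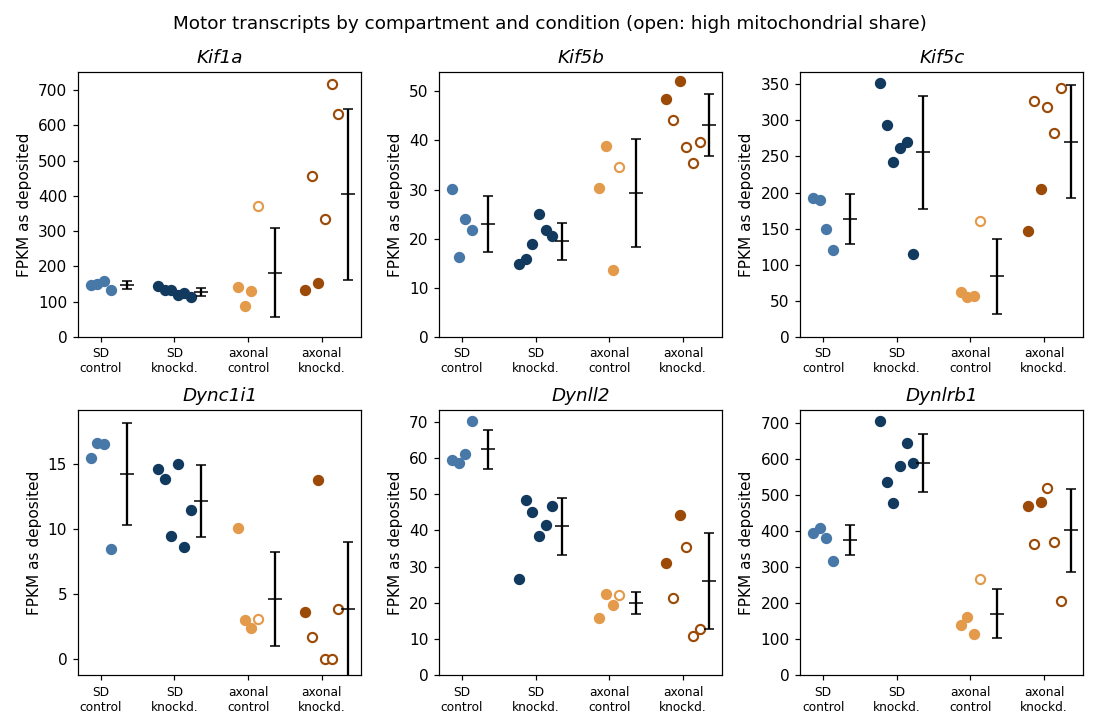
FPKM as deposited of 6 motor genes in every library, by compartment (SD, somatodendritic) and condition, with mean and SD at the right of each group; open circles are the 5 axonal libraries in which mitochondrially encoded genes took 33.0 to 47.7% of FPKM. Kif1a is at 333 FPKM or more in each open circle and at 159 FPKM or less in each filled one, and Kif5b of the 6 axonal knockdown libraries lies above that of the 6 somatodendritic knockdown libraries.

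In Tdp-43 knockdown cultures 3 of 55 members passed in the same comparison, against 5.35% of the 14062 genes, and at an unadjusted p under 0.05 there were 7 higher and 10 lower, against 9.52% and 11.1%. The count of 3 was 6 with FPKM as deposited and 0 with axonal libraries of low mitochondrial share alone. Leaving out a single library moved it from 1 (without axonal knockdown replicate 2) to 9 (without axonal knockdown replicate 4). The count over all genes moved too, from 753 in the main fit to between 445 and 1232 without a single library. The 1232 was reached without axonal knockdown replicate 4. Kif5b was higher in axons. It stood at 14.9 to 24.9 FPKM (median 19.7) in the 6 somatodendritic and at 35.4 to 52.1 FPKM (median 41.9) in the 6 axonal knockdown libraries. Every axonal library lay above every somatodendritic one, which holds for 1.12% of all genes, and the log2 difference was 1.35 (SE 0.25, limma adjusted p = 0.00423). Its values imply 0.5 to 10.1 fragments (median 3.05) in these somatodendritic and 0.7 to 34.0 (median 14) in these axonal libraries. Without each of the 20 libraries in turn its adjusted p stayed at 0.0139 or lower, and without the one labelled axonal knockdown replicate 1 it was 0.00792 in limma. With the 2 axonal knockdown libraries of low mitochondrial share alone the log2 difference was 1.31 (limma adjusted p = 0.0598), and with the 4 of high share alone 1.38 (adjusted p = 0.00378). Kif5b is expressed in most cell types. Markers of fibroblasts (5 genes, Lum at 0 in all 10 axonal libraries) summed to 11.4 to 81.1 FPKM in axonal and 0 to 13.9 FPKM in somatodendritic knockdown libraries. In controls they summed to 11.9 to 47.9 and 1.43 to 11.9 FPKM. The markers did not agree. In knockdown, Col1a1 held 6.64 to 74.6 FPKM in axonal and 0 to 9.41 FPKM in somatodendritic libraries, and Col1a2 and Col3a1 also reached higher in axonal ones. Dcn reached 1.02 FPKM in axonal and 4.16 FPKM in somatodendritic libraries, and Lum 0 and 2.54 FPKM. The part of fibroblasts in the Kif5b result was not tested. In libraries from many cells a lower number of cells of a type cannot be told apart from less RNA per cell.

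Kif1a, the main carrier of synaptic vesicle precursors in axons, also passed as higher. It stood at 113 to 143 FPKM (median 128) in somatodendritic and at 134 to 719 FPKM (median 395) in axonal knockdown libraries, and the groups overlap. The log2 difference was 1.65 (SE 0.41, limma adjusted p = 0.023). This call followed the mitochondrial share of the axonal libraries. Knockdown replicates 1 and 3, of low share, held 134 and 152 FPKM and gave, alone, a log2 difference of 0.13 (limma adjusted p = 0.821), while the 4 of high share held 333 to 719 FPKM and gave 2.40 (limma adjusted p = 6e-06). Over both conditions Kif1a was 333 to 719 FPKM in the 5 axonal libraries of high share and 87.1 to 152 FPKM in the 5 of low share, with no overlap on either scale. Among 13958 genes, 0.781% lay wholly higher in the libraries of high share and 1.15% wholly lower. Kif1b and Kif5c were the other members whose sets did not overlap after scaling, both higher with high share, although as deposited they overlapped (Kif1b 384 to 631 against 109 to 448 FPKM, Kif5c 161 to 345 against 55.8 to 206 FPKM). The libraries of high share had relative depths of 0.103 to 0.704 and those of low share 0.55 to 0.76. The call of Kif1a also ended without the libraries under a relative depth of 0.5 (log2 difference 0.93, limma adjusted p = 0.367), with array weights (1.19, adjusted p = 0.0609), with only the groups compared (1.64, adjusted p = 0.0768), and without axonal knockdown replicate 2 or 6 (adjusted p = 0.0535 and 0.061).

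Dync1i1, a neuronal intermediate chain that links dynein to dynactin, passed as lower. It stood at 8.61 to 15 FPKM (median 12.7) in somatodendritic and at 0 to 13.8 FPKM (median 2.68) in axonal knockdown libraries. Replicates 4 and 5, with relative depths of 0.316 and 0.103, listed it at 0, and replicate 3 held 13.8 FPKM, so that the groups overlap. These values imply few fragments, 0.2 to 6.2 (median 2.85) in somatodendritic and 0 to 6.2 (median 0.3) in axonal libraries. The log2 difference was -1.83 (SE 0.51, limma adjusted p = 0.0382). Without the libraries under a relative depth of 0.5 it was -0.91 (limma adjusted p = 0.318), with axonal libraries of low mitochondrial share alone -0.66 (adjusted p = 0.589), and with those of high share alone -2.44 (adjusted p = 0.00822). Of the 20 fits without a single library, 12 ended the call (limma adjusted p up to 0.0763). In control libraries Dync1i1 was 8.45 to 16.6 FPKM in somatodendritic and 2.45 to 10.1 FPKM in axonal (log2 difference -1.08, SE 0.62, adjusted p = 0.43 in limma). Its paralogue Dync1i2, found in most cells, had 47.1 to 70.2 and 37.7 to 61.5 FPKM in knockdown libraries (0.13, SE 0.23, adjusted p = 0.806 in limma).

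Among the remaining retrograde motor genes no difference between compartments passed in either condition. Dync1h1 differed by 0.06 (SE 0.28) in control and -0.13 (SE 0.23) in knockdown on the log2 scale, with limma adjusted p of 0.956 and 0.807, and its 20 values lay between 94.8 and 311 FPKM. The light intermediate chains, which bind cargo adaptors, gave -0.36 and 0.11 (Dync1li1) and -0.41 and -0.45 (Dync1li2). Of the dynactin subunits, Dctn1 (p150-Glued, which grips the microtubule and dynein) gave -0.10 and -0.34, with SE of 0.58 and 0.48, Dctn2 gave 0.24 and -0.32, and Dctn3 gave 0.35 and -0.70. An SE of 0.58 leaves differences of more than 2-fold within the error of the Dctn1 value. Of 9 dynein light chains 8 had a negative difference in each condition, with medians of -0.27 and -0.54, where with no filter 55.2% and 45.7% of all genes were negative. Leaving aside the 4 near-identical Dynlt1 genes, 5 of 5 and 4 of 5 were negative. Of the 2 genes of dynein 2, the ciliary motor, Dync2h1 had groups without overlap in knockdown (0.38 to 2.45 FPKM in somatodendritic, 2.5 to 5.91 FPKM in axonal) and a limma unadjusted p of 0.0169, but its values imply only 0 to 0.6 fragments in those somatodendritic and 0 to 5.4 in those axonal libraries.

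**Figure D3:**
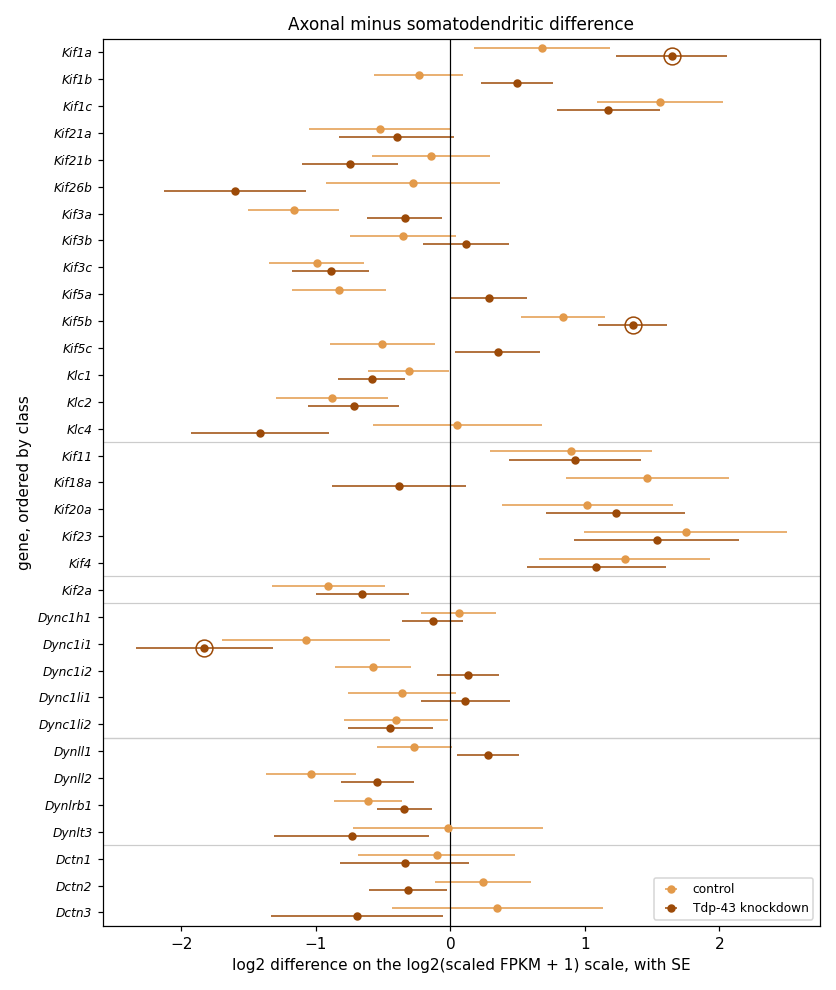
Log2 difference of axonal minus somatodendritic libraries on the log2(scaled FPKM + 1) scale, with its standard error, for the 33 named motor genes in control (light) and Tdp-43 knockdown (dark); a ring marks a limma adjusted p under 0.05. Only Kif1a, Kif5b and Dync1i1 carry a ring, each in knockdown, and the mitotic kinesins Kif11, Kif20a, Kif23 and Kif4 lie to the right of 0 in both conditions.

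Mitotic kinesins are known best from the spindle of dividing cells, although some, such as Kif4, Kif11 and Kif23, also act in neurons that no longer divide. With no filter on low values, so that every member counts, all 11 had a positive axonal minus somatodendritic difference in control, with a median of 1.14 on the log2 scale, where 42.2% of 21331 genes were positive. In knockdown 10 of 11 were positive, with a median of 0.80, where 46.9% of genes were, and Kif18a was the exception (-0.38). The median of all genes was at 0 in both. These counts were the same as deposited and with quantile normalization. With axonal libraries of low mitochondrial share alone 11 and 11 were positive, and with those of high share alone 10 and 9. A mean of at least 1 FPKM was needed to be tested, which 10 of the 11 reached. None passed an adjusted p of 0.05. At an unadjusted p under 0.05, 2 were higher in control (Kif18a and Kif23) and 3 in knockdown (Kif20a, Kif23 and Kif4), against 8.09% and 9.52% of all genes in that direction. Kif18a in control (mean 0.957 FPKM in somatodendritic, 3.50 in axonal) and Kif23 in knockdown (0.868 and 5.83 FPKM) had a mean under 1 FPKM in the somatodendritic group, so that the filter favoured this direction for them. Kif23, a kinesin of the midbody that ends cell division, stood at 0.542, 1.99, 0.811 and 5.88 FPKM in somatodendritic and 15.5, 5.16, 4.8 and 2.29 FPKM in axonal control, and the groups overlap. Its log2 difference was 1.75 (SE 0.75) in control and 1.53 (SE 0.62) in knockdown, with limma adjusted p of 0.259 and 0.152. Kif11, which pushes spindle poles apart, stood at 2.31 to 4.94 and 2.62 to 5.11 FPKM in control (0.90, SE 0.60), and Kif4, a chromosome-bound kinesin, at 0.91 to 5.14 and 3.15 to 9.78 FPKM (1.30, SE 0.64). These values rest on few implied fragments. Of the values of mitotic kinesins 70.0% had under 3 implied fragments and the median was 1.0, against 26% and 13.4 for anterograde kinesins.

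Summed over the 11 genes, mitotic kinesins reached 7.4 to 31.5 FPKM in somatodendritic control and 0 to 33.7 FPKM in the knockdown of that compartment. They reached 25.0 to 64.3 FPKM in axonal control, and between 5.0 and 112 FPKM in the 6 axonal knockdown libraries. The 8 markers of dividing cells, Mki67 and Top2a among them, had sums, in the same order of groups, of 80.8 to 92.2, 19.8 to 77.9, 143 to 248 and 51.8 to 388 FPKM. Both sums were highest in axonal libraries. Within the somatodendritic compartment the marker sums of control and knockdown do not overlap while those of mitotic kinesins do, and libraries with 2.6 and 33.7 FPKM of mitotic kinesins had marker sums of 74.8 and 77.9 FPKM. All 8 were measured with a mean of at least 1 FPKM in each group. The 4 neural progenitor markers summed to 23.7 to 80.3 FPKM in somatodendritic and 109 to 167 FPKM in axonal control, and overlapped in knockdown, with 55.7 to 92.1 and 36.8 to 265 FPKM. Of the 4, only Nes did not overlap in control (4.95 to 17.8 and 64.8 to 95.7 FPKM). Sox2, Pax6 and Hes5 overlapped between compartments there. The part of dividing cells in the mitotic kinesin values was not tested.

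**Figure D4:**
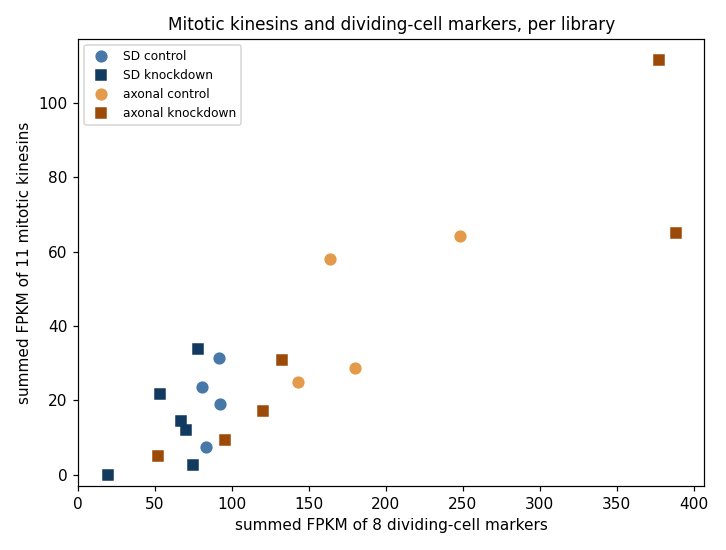
Summed FPKM of the 11 mitotic kinesins (vertical) against summed FPKM of 8 dividing-cell markers (horizontal), 1 point per library, coloured by compartment (SD, somatodendritic) with circles for control and squares for knockdown. The highest point is axonal knockdown replicate 1 (112 FPKM of mitotic kinesins at 377 FPKM of markers), and the lowest is somatodendritic knockdown replicate 6 (0 at 19.8 FPKM).

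Promoters of mitotic kinesins are shown because these genes moved together in sign, with 1 neuronal kinesin beside them. RefSeq promoters (build GRCm38.p6, 250 bases before to 50 after the start of transcription) were matched by symbol for 49 of the 63 genes, with 56 entries. Each was searched on both strands for TTTGAA, the core of the cell cycle homology region known from promoters of mitotic genes, for CCAAT (the CCAAT box, bound by NF-Y) and for the GC box, spelled GGGCGG. The first of these, TTTGAA, occurred in 9 of 10 mitotic kinesin promoters and in 17.9% of all 32851 promoters, and in 2 of 18 entries of anterograde kinesins. CCAAT occurred in 6 of 10 mitotic kinesin promoters, against 37.4% of all. GGGCGG occurred in 15 of 18 entries of anterograde kinesins, 6 of 10 mitotic kinesins and 35.7% of all promoters. A match describes the letters only. The promoters of Kif11 at chr19:37376132-37376431 (plus strand), Kif23 at chr9:61946750-61947049 (minus strand) and Kif4 at chrX:100625815-100626114 (plus strand) hold all 3 motifs. That of Kif18a at chr2:109280488-109280787 (plus strand) is the mitotic one without TTTGAA, and that of Kif5c at chr2:49619036-49619335 (plus strand) belongs to a neuronal kinesin-1. They are written 5′ to 3′ on the strand of the gene, with every match, on either strand, in capitals.
Kif11: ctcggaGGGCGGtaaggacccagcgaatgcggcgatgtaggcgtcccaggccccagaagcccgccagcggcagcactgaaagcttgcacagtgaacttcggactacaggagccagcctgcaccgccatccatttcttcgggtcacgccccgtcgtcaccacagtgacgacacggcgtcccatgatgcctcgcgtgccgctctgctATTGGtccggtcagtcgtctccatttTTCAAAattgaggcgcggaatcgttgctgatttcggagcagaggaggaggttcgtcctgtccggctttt
Kif23: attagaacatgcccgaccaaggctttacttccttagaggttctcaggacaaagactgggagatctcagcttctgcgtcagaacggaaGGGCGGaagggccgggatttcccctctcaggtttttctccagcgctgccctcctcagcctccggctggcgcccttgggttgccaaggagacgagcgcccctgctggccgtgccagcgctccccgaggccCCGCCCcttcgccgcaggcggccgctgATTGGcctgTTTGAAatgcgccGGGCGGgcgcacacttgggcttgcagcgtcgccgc
Kif4: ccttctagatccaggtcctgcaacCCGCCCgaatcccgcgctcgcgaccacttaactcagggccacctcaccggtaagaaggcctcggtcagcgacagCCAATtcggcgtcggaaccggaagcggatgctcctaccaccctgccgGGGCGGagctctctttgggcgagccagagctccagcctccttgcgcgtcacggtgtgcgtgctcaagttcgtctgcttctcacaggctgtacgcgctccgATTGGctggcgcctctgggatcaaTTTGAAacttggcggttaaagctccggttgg
Kif18a: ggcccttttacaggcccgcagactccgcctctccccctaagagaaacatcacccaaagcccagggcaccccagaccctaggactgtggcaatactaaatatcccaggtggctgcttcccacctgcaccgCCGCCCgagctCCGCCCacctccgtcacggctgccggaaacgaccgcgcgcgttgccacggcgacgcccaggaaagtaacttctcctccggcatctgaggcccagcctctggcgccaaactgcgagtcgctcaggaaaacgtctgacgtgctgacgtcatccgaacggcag
Kif5c: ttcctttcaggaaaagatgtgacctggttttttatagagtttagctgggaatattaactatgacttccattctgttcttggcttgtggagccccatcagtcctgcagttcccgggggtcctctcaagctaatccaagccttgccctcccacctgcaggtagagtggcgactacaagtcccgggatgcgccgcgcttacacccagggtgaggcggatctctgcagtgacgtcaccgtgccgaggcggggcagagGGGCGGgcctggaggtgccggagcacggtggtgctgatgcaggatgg

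The comparison of knockdown with control asks how loss of Tdp-43 changes these transcripts. In the somatodendritic compartment no member passed an adjusted p of 0.05 in limma (0.974% of 13762 genes did), and at an unadjusted p under 0.05 there were 3 higher and 3 lower of 53 tested, against 4.59% and 9.22% of all genes. Dynll2 came nearest. It stood at 59.4, 58.6, 61.1 and 70.3 FPKM in control and at 26.6 to 48.3 FPKM (median 43.4) in the 6 knockdown libraries. All 6 lay under all 4 controls, as 3.6% of all genes did, with a log2 difference of -0.82 (SE 0.20, limma adjusted p = 0.0751). Kif1a was 133 to 159 FPKM in control and 113 to 143 FPKM in knockdown (-0.42, SE 0.12, adjusted p = 0.134 in limma), overlapping as deposited and without overlap after scaling. Dctn6 had a log2 difference of -0.36 (limma unadjusted p = 0.0144).

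Members with positive differences there included Kif21b, a kinesin-4 that slows microtubule growth. It stood at 61.4, 49.5, 69.3 and 63.4 FPKM in control and 89.6 to 189 FPKM (median 120) in knockdown libraries, with all 6 above all 4 controls (log2 difference 0.80, SE 0.21, limma adjusted p = 0.104). Kif26b, a kinesin-11 linked to cell adhesion and polarity, stood at 11.5, 6.56, 8.58 and 10.4 FPKM in control and 15.9 to 30.5 FPKM (median 19.4) in knockdown, again without overlap (0.92, SE 0.26, limma adjusted p = 0.121). Such a higher, wholly separate group was found for 1.9% of all genes. Dynlrb1 stood at 394, 408, 381 and 316 FPKM in control and 476 to 705 FPKM (median 584) in knockdown. These groups do not overlap as deposited and do after scaling (0.43, SE 0.13, limma adjusted p = 0.137). With FPKM as deposited, on which the median of all genes lay at 0.04 in place of -0.13, Dynlrb1 and Kif21b passed (adjusted p = 0.0276 and 0.0272 in limma), as 1.69% of all genes did. With array weights Dynll2 and Kif26b passed (adjusted p = 0.0205 and 0.043 in limma), as 3.14% of all genes did. Simulated 4-fold changes of genes at 20 FPKM or more were recovered in 16% of cases and 2-fold changes in 1%. The simulation assumed a fixed spread and fragments read from interval widths, so that its rates need not be those of these data. A count of 0 does not exclude changes of this size.

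Of these 12 ratios within a somatodendritic library, 2 did not overlap between control and knockdown. Kif21b to Kif21a was 3.26 to 3.66 in control and 3.96 to 9.29 in knockdown, and Klc1 to Klc2, light chains that link kinesin-1 to cargo, was 2.30 to 2.81 in control and 1.44 to 2.2 in knockdown. Of single genes, 1.9% lay wholly higher and 3.6% wholly lower in this comparison, and the level of Kif21b is among the former. The other 10 ratios overlap, among them Kif5a to Kif5b (1.91 to 3.36 and 1.78 to 3.20) and Dync1i1 to Dync1i2 (0.175 to 0.404 and 0.182 to 0.306). No ratio was tested, and no share was computed for ratios of other gene pairs.

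In the axonal compartment no member passed either (0.401% of 13958 genes did), with 3 higher and 2 lower of 54 tested at an unadjusted p under 0.05 in limma, against 2.14% and 6.46% of all genes. The smallest p was that of Kif5c, a neuronal kinesin-1. It stood at 61.7, 55.8, 55.9 and 161 FPKM in control and at 146 to 345 FPKM (median 300) in knockdown libraries, overlapping only through control replicate 4. The log2 difference was 1.26 (SE 0.41, limma adjusted p = 0.328). With a term for mitochondrial share, high or low, it was 0.71 (SE 0.28, adjusted p = 0.787 in limma). Kif1b stood at 149, 109, 164 and 384 FPKM in control and 321 to 631 FPKM (median 445) in knockdown (0.81, SE 0.37, limma adjusted p = 0.564), and 0.38 (SE 0.28) with that term. Kif5a stood at 17.2, 14.4, 22.5 and 25.3 FPKM in control and 21.6 to 79.8 FPKM (median 57.0) in knockdown (0.81, SE 0.43, limma adjusted p = 0.637), and 0.49 (SE 0.43) with that term. Of the 5 axonal libraries of high mitochondrial share 1 is a control, so that condition and mitochondrial share can be told apart only in part.

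Retrograde genes of the axonal compartment gave wide errors. Dynlrb1 stood at 138, 162, 114 and 267 FPKM in control and 204 to 519 FPKM (median 419) in knockdown (0.72, SE 0.32, limma adjusted p = 0.546), and Dync1i2 at 11.7 to 29.3 and 37.7 to 61.5 FPKM (0.71, SE 0.36, limma adjusted p = 0.621). Dync1h1 (-0.03, SE 0.33), Dctn1 (-0.48, SE 0.66) and Dctn2 (-0.84, SE 0.44) had values on the other side of 0. Dynlt3, a light chain, stood at 6.01 to 19.8 FPKM in control and 0 to 12.1 FPKM in knockdown (-1.45, SE 0.68, limma adjusted p = 0.578). With libraries of low mitochondrial share alone, Dynlrb1 gave 1.04 and Dync1i2 0.77, but 1 of the 2 knockdown libraries there is the one labelled axonal knockdown replicate 1. With those of high share, which hold a lone control, they gave 0.07 and 0.37. When replicate 1 of axonal knockdown was left out, both gave 0.71. As deposited, 9 of 54 members were higher and 0 lower at an unadjusted p under 0.05 in limma, against 7.16% and 2.67% of all genes, and the median of all genes was then at 0.23 in place of -0.17. No member passed an adjusted p of 0.05 as deposited. With no filter on low values, all 11 mitotic kinesins had a negative difference here (9 of 11 as deposited, 10 of 11 with quantile normalization), against 54.1% of all genes. Their median was -0.89, against -0.08 over all genes, although Kif15, Kif18b, Kif20a and Kif20b had a higher mean FPKM in knockdown than in control. With axonal libraries of low or of high mitochondrial share alone, 9 and 8 of 11 were negative. In the somatodendritic compartment 10 of 11 were negative (7 of 11 with quantile normalization), with a median of -0.61, against 60.4% of genes. Somatodendritic knockdown replicate 6, of relative depth 0.143, listed all 11 at 0 FPKM. Without libraries under a relative depth of 0.5, 7 of 10 tested were negative in axons (median -0.37) and 6 of 8 in the somatodendritic compartment (median -0.31). The medians of all genes were then 0.06 and -0.03. Kif18a, at -1.64 in axons (SE 0.63, limma adjusted p = 0.454), was tested only because of its control level and rests mainly on axonal control replicate 3 (8.86 FPKM, 5.8 implied fragments), with at most 0.3 implied fragments in any axonal knockdown library.

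**Figure D5:**
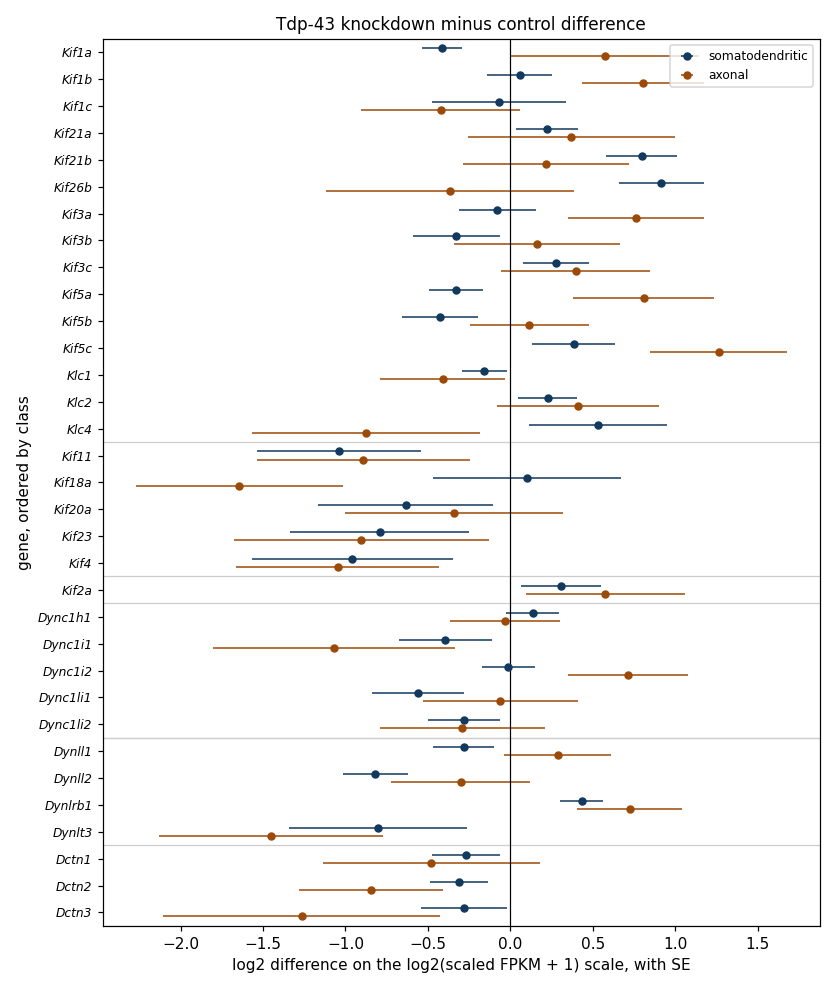
Log2 difference of Tdp-43 knockdown minus control on the log2(scaled FPKM + 1) scale, with its standard error, for the named motor genes in the somatodendritic (blue) and the axonal (brown) compartment. No value reached a limma adjusted p of 0.05, the axonal errors are wider than the somatodendritic ones for most genes, and the mitotic kinesins Kif11, Kif20a, Kif23 and Kif4 lie to the left of 0 in both, although Kif20a lies at 0.06 in axons as deposited and at 0.15 in the somatodendritic compartment with quantile normalization.

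Whether the knockdown difference itself differed between compartments was tested as an interaction over all 20 libraries. No member passed an adjusted p of 0.05, against 0.0711% of 14062 genes, and at an unadjusted p under 0.05 there were 1 higher and 1 lower of 55, against 2.75% and 2.86%. Kif5a differed by 1.12 (SE 0.45, limma adjusted p = 0.846), from -0.34 in the somatodendritic to 0.78 in the axonal compartment in the same fit, by 1.39 without the library labelled axonal knockdown replicate 1 (adjusted p = 0.289 in limma), and by 0.57 and 1.15 with axonal libraries of low and of high mitochondrial share alone. Kif18a differed by -1.84 (SE 0.79, adjusted p = 0.846 in limma). All of these comparisons draw on the same 20 libraries and share groups, so that they are not independent of each other.

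Motors act through adaptors and regulators. A list of 39 genes was taken (37 in the files), which also holds the kinesins Kifc1, Kifc2 and Kifc3. Between compartments 5 of 37 tested passed as lower in axons of knockdown cultures and none as higher (2.42% and 2.93% of all genes did). Their median was -0.35, against -0.05 over all genes. None passed in control, where 3 (Kifc1 among them) were higher and 6 lower at an unadjusted p under 0.05 in limma (8.09% and 7.31% of all genes). The 5 were Kifap3, which joins kinesin-2 to cargo (log2 difference -1.26, limma adjusted p = 0.0293), Mapk8ip2 (JIP2, a scaffold on kinesin-1, -1.19 with 0.0178), Clstn1 (calsyntenin-1, a kinesin-1 cargo docking protein, -0.999 with 0.0182), Madd (an adaptor of Kif1a and Kif1b, -1.10 with 0.0365) and Arl8a (a small GTPase that couples lysosomes to kinesin, -0.95 with 0.0287). All 5 passed with axonal libraries of high mitochondrial share alone (limma adjusted p of 0.00795 to 0.0299) and none with those of low share alone (log2 differences of -1.19 to -0.43, adjusted p of 0.0825 to 0.487). None passed without libraries under a relative depth of 0.5 (log2 differences of -1.31 to -0.74, adjusted p of 0.0559 to 0.116) or with only the groups compared (-1.27 to -0.96, adjusted p of 0.0703 to 0.107). In control the same 5 gave -1.26, -0.90, -1.08, -0.91 and -0.93. No gene of the list passed on knockdown in either compartment or in the test of the difference. Pafah1b1 (LIS1, which activates dynein) had -0.72 (limma adjusted p = 0.0793) and Clstn1 0.58 (adjusted p = 0.0751 in limma) in the somatodendritic compartment.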

How the data were processed

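RNA-seq values of 20 libraries from axonal and somatodendritic compartments of mouse motoneuron cultures were grouped by the sample labels. The authors deposited FPKM values with a 95% interval for each gene and library, made with Cufflinks 2.2.1 on build GRCm38 after read checks with FastQC 0.10.1, per the submitters' processing notes. The aligner's settings are not given in the sources used here. Read counts were not used, and PCR duplicates raise the implied fragments above the number of RNA molecules. Intervals do not cover the spread between libraries. Implied fragments are read from interval widths and need not equal the reads of a gene. In axonal knockdown replicate 5, for example, Klc1 at 47.1 FPKM implied 0.4 fragments and Kif13a at 1.94 FPKM implied 1.0.

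The motor genes, their classes, the adaptor list, the marker lists (motoneuron, dividing cells, neural progenitor, astroglia, oligodendrocyte lineage, fibroblast, microglia, interneuron and sensory neuron) and the tests were chosen with earlier results of these data known. Microglia and sensory neuron markers summed to at most 27.5 and 21.2 FPKM in any library. Scaling used the median of ratios over genes that reached 1 FPKM in each library of a fit, with factors of 0.667 to 1.38 over all 20 libraries (4577 genes), 0.905 to 1.15 within the somatodendritic (7619 genes) and 0.779 to 1.52 within the axonal compartment (5112 genes). Genes whose mean reached 1 FPKM entered limma 3.58.1 (lmFit, eBayes with trend; R 4.3.3) on log2(scaled FPKM + 1), two-sided, and p-values were adjusted after Benjamini and Hochberg over every gene in the fit. Comparisons between compartments and their interaction used all 20 libraries in 1 fit, and knockdown comparisons the 10 libraries of a compartment. Named were 29 motor genes of known transport or mitotic role, every other motor gene past an adjusted p of 0.05 and the 5 with the smallest unadjusted p of each comparison, 33 in all. Other motor genes named in the text were chosen after their values were seen. On simulated data, 4-fold changes of genes of at least 20 FPKM were recovered in 13% (compartment in control), 37% (compartment in knockdown), 16% (knockdown, somatodendritic) and 5% (knockdown, axonal) of cases. Recovery of 2-fold changes was 0 to 1%, and 9.76 to 28.6% of calls were false. The simulation assumed the same fixed spread for every gene and took fragments per FPKM from interval widths. Its rates need not be those of these data, and its shares of false calls rest on few calls. No 2 libraries held the same values (at most 0.692% identical). Alternatives were quantile normalization, no scaling (FPKM as deposited), a pseudocount of 0.1 or 5, no filter or one of 5 FPKM, array weights, leaving out libraries under a relative depth of 0.5, only the groups compared or all 20 libraries, a replicate block, and leaving out each library. The division of axonal libraries by mitochondrial share was added after seeing the data. Python 3.11.15, numpy 2.4.6, pandas 2.3.3 and matplotlib 3.10.9 were used.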

Additional observations from a re-analysis of the deposited data

Results flagged for a closer look

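A library was marked where its distance from the nearest of the others in its group, relative to the range of the group, exceeded Dixon's 95% limit. Over the named motor genes 132 groups were examined and 9 were marked, and chance marks about 1 in 20. Values are FPKM as deposited. Kif5c stood at 161 in axonal control replicate 4, against 55.8 to 61.7 in the other 3. Dync1i1 was marked in 3 groups: 8.45 in somatodendritic control replicate 4 (others 15.5 to 16.6), 10.1 in axonal control replicate 1 (others 2.45 to 3.12) and 13.8 in axonal knockdown replicate 3 (others 0 to 3.91). Dync1h1 stood at 148 in somatodendritic knockdown replicate 6, the library of lowest depth in its compartment, against 245 to 291. Dync1i2 stood at 70.2 in somatodendritic knockdown replicate 1, against 47.1 to 55.6. Kif11 was marked at 4.94 in somatodendritic control replicate 4 (others 2.31 to 2.59) and at 2.62 in axonal control replicate 2 (others 4.78 to 5.11). Kif1b stood at 300.3 in somatodendritic control replicate 1, against 322 to 323 in the others.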

How the results depend on the processing

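All 165 differences of named genes kept their sign wherever they passed the threshold, and no call turned direction under any alternative. Counts of genes moved more. Between compartments in control, 295 genes and 0 motor genes passed as reported. The counts were 579 and 7 with FPKM as deposited, 633 and 2 with quantile normalization, 1253 and 6 with array weights, 1058 and 4 without libraries of low depth, 949 and 2 with only the groups compared, 1294 and 6 with axonal libraries of low mitochondrial share, and 83 and 1 with those of high share, in which a lone axonal control library is assumed to vary like the other groups. Pseudocounts of 0.1 and 5 gave 181 and 483 genes. Leaving out a library gave 96 to 509 genes and 0 to 2 motor genes (2 without axonal control replicate 4 or axonal knockdown replicate 5).

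Between compartments in knockdown, 753 genes and 3 motor genes passed as reported. Motor genes numbered 6 with FPKM as deposited and 5 with quantile normalization. Genes numbered 495 with no filter and 370 without libraries of low depth, 179 with 1 motor gene (Kif5b) with only the groups compared, 266 with 0 motor genes with axonal libraries of low mitochondrial share, and 1020 with 4 motor genes with those of high share. Leaving out a library gave 445 to 1232 genes and 1 to 9 motor genes, the lowest without axonal knockdown replicate 2 and the highest without axonal knockdown replicate 4.

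For knockdown in the somatodendritic compartment 134 genes passed as reported, 233 with 2 motor genes as deposited, 212 with a pseudocount of 5, 432 with 2 motor genes with array weights, 61 with all 20 libraries in 1 fit, and 58 to 198 when a library was left out, without a motor gene. In the axonal compartment 56 passed as reported, 30 with a pseudocount of 0.1, 87 with array weights, 236 with all 20 libraries, 0 with libraries of high mitochondrial share, and 37 to 70 when a library was left out, again without a motor gene. For the difference between compartments 10 genes passed as reported, 56 with axonal libraries of high share and 10 to 15 when a library was left out.

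Deviations of same-numbered libraries correlated at -0.04 to 0.07. Correlations this low do not exclude that same-numbered libraries shared a culture, which the labels do not state. The main fits did not include such a pairing. With a replicate block, 120 and 400 genes passed between compartments in control and knockdown, 18 and 35 for knockdown in the somatodendritic and axonal compartment, and 10 for the difference. Of the motor genes Dync1i1 no longer passed with the block (limma adjusted p = 0.0653), at the same log2 difference of -1.83. The causes of these shifts were not tested. Implied fragments were fewest for the kinesins outside transport and mitosis (median of 0.0, 92.2% of values under 3), then dynein 2 (1.0 and 75.0%) and mitotic kinesins (1.0 and 70.0%).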
